A study of Mus musculus with 6 samples.

Results

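The galectin genes described here are Lgals1, Lgals3, Lgals9 and Lgals3bp, 4 of the 23998 gene symbols counted in single cells of mouse kidney. They were listed by name, with earlier results of these data known. The earlier value known to have singled them out was the level of Lgals9 in mesenchymal cells at day 10 of injury. Their changes with injury in mesenchymal cells are therefore given as a description, with no p-value. Cells came from healthy kidneys and from kidneys at day 2 and day 10 of unilateral ureteric obstruction (UUO). UUO ties off the ureter of a single kidney and leads to tubular injury and scarring. Each of 6 plates held cells of 3 mice, 1 per condition, taken by enzymatic digestion and cell sorting through a gate labelled mesenchyme or a gate labelled endothelia. Strain, age, genotype and the antibodies of the gates are not given in the sources used here. Full-length cDNA was made from each cell with Smart-seq2, which counts reads and not molecules.

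Galectins are small lectins that bind beta-galactoside sugars on glycoproteins, both outside and inside the cell. Galectin-1, made by Lgals1, is a dimer of a single-domain lectin and is known as a product of stromal and smooth muscle cells. Galectin-3, made by Lgals3, joins its lectin domain to a tail through which it self-associates, and it is known in injured epithelium and macrophages. Galectin-9, made by Lgals9, carries a pair of lectin domains on 1 chain and is known as an interferon-inducible gene of endothelium. Lgals3bp makes a secreted glycoprotein that binds galectins and is itself no lectin. It is also interferon-inducible.

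All 4 genes are protein-coding and none overlaps another annotated gene in GENCODE M21 on GRCm38 (mm10). Lgals1 lies on the plus strand of chromosome 15, from 78926725 to 78930465. Lgals3 lies on the plus strand of chromosome 14, from 47367751 to 47386160. Lgals9 lies on the minus strand of chromosome 11, from 78962974 to 78984946. Lgals3bp lies on the minus strand of the same chromosome, from 118392751 to 118402092.

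The promoters of Lgals9 and Lgals3bp are shown because both genes were high in the endothelia gate, as were most interferon-responsive genes. The stretches are the 120 bases before the RefSeq start (GRCm38.p6), on the strand of the gene, at chr11:78984925-78985044 for Lgals9 and chr11:118401960-118402079 for Lgals3bp. Capitals mark the letters GAAANNGAAA, the core of the interferon-stimulated response element, read on the opposite strand.
Lgals9: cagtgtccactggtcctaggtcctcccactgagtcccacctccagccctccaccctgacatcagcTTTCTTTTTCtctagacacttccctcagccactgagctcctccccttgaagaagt
Lgals3bp: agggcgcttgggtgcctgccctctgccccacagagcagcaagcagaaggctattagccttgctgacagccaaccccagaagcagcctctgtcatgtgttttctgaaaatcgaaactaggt
A further match in Lgals9 began at base 16 after the start, within chr11:78984892-78984917.
Lgals9: agctgtggTTTCTGTTTCctagctca
The motif, searched on both strands of 300 bases around each RefSeq start, was found in 3.44% of 32851 such windows. The Lgals9 window held an exact match and the Lgals3bp window did not. Only exact matches were counted, so near matches in either window were passed over. The letters TTCNNNGAA, the core of the interferon-gamma activated site, were in 8.30% of windows, and their special case TTCCNGGAA was in 1.15%. Neither was in the Lgals9 or the Lgals3bp window. The printed Lgals3bp stretch lies wholly within the GENCODE span of the gene, so GENCODE places the start further upstream than RefSeq. The RefSeq start of Lgals3 lies far inside its GENCODE span, and that window is not used here. The motifs were chosen after the promoters had been read, and a match is a run of letters, not a shown binding site.

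Of 2292 wells labelled with a gate, 2235 passed filters of 1000 genes and 20000 reads. Reads were summed per gate, condition and layout number, which gave 24 sums of 61 to 127 wells and 19382742 to 56326210 reads. The number, from 1 to 4, was assumed to stand for a mouse within a condition. It labels plates 1 and 2, plate 3, plate 4, and plates 5 and 6. No label says that it marks a mouse, so p-values measure the spread between these sums. Endothelial markers summed to 621 to 1145 CPM (read counts scaled to a common library size) in mesenchyme sums, against 18129 to 26725 CPM in endothelia sums. In all plates a condition and gate filled the same columns of wells, so condition and plate column cannot be told apart. The 12 control wells held 2 reads of Lgals1 and none of the other members. Their total was 251 to 30393 reads per well.

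In healthy kidneys the mesenchyme and endothelia gates divided the 4 genes. Lgals1 was higher in the mesenchyme gate, Lgals9 and Lgals3bp were higher in the endothelia gate, and Lgals3 was close to 0 in both. Levels are CPM scaled by TMM, a method that evens out differences in library composition, and are given for numbers 1 to 4. Tests are edgeR quasi-likelihood tests with number as a block and Benjamini-Hochberg adjustment over all genes, with a threshold of 0.05.

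Lgals1 had 507, 482, 821 and 627 CPM in healthy mesenchyme sums, against 20.1, 9.85, 19.3 and 16.2 CPM in healthy endothelia sums. The lowest mesenchyme sum stood far above the highest endothelia sum. The log2 difference, mesenchyme over endothelia, was 5.22 ± 0.31 (SE, n = 4 sums each, edgeR adjusted p = 8.54e-10), a 37.2-fold higher level. Lgals9 had 76.1, 48.6, 52.4 and 71.4 CPM in healthy mesenchyme sums, against 957, 994, 964 and 939 CPM in healthy endothelia sums. The 4 endothelia sums lay within a narrow band and did not overlap the mesenchyme sums. The log2 difference was -3.96 ± 0.28 (SE, n = 4 sums each, edgeR adjusted p = 8.89e-09). Lgals3bp had 114, 91.8, 91.4 and 123 CPM in healthy mesenchyme sums, against 539, 424, 701 and 452 CPM in healthy endothelia sums. These too did not overlap. The log2 difference was -2.29 ± 0.27 (SE, n = 4 sums each, edgeR adjusted p = 3.32e-06).

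Lgals3 had 1.45, 0, 14.6 and 3.24 CPM in healthy mesenchyme sums, against 1.26, 0, 12.8 and 5.12 CPM in healthy endothelia sums. The groups overlapped, and the log2 difference was 0.04 ± 1.32 (SE, n = 4 sums each, edgeR adjusted p = 0.99). The wide error leaves a difference of that size undetectable here. So 3 of the 4 members passed the threshold between the gates, where 23.9% of 16116 genes tested did (11.3% higher and 12.7% lower in mesenchyme). Of those calls 47.1% were higher in mesenchyme, and 67.5% were with scaling by spike-in RNA. Leaving out any number kept all 3 past the threshold.

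**Figure D1:**
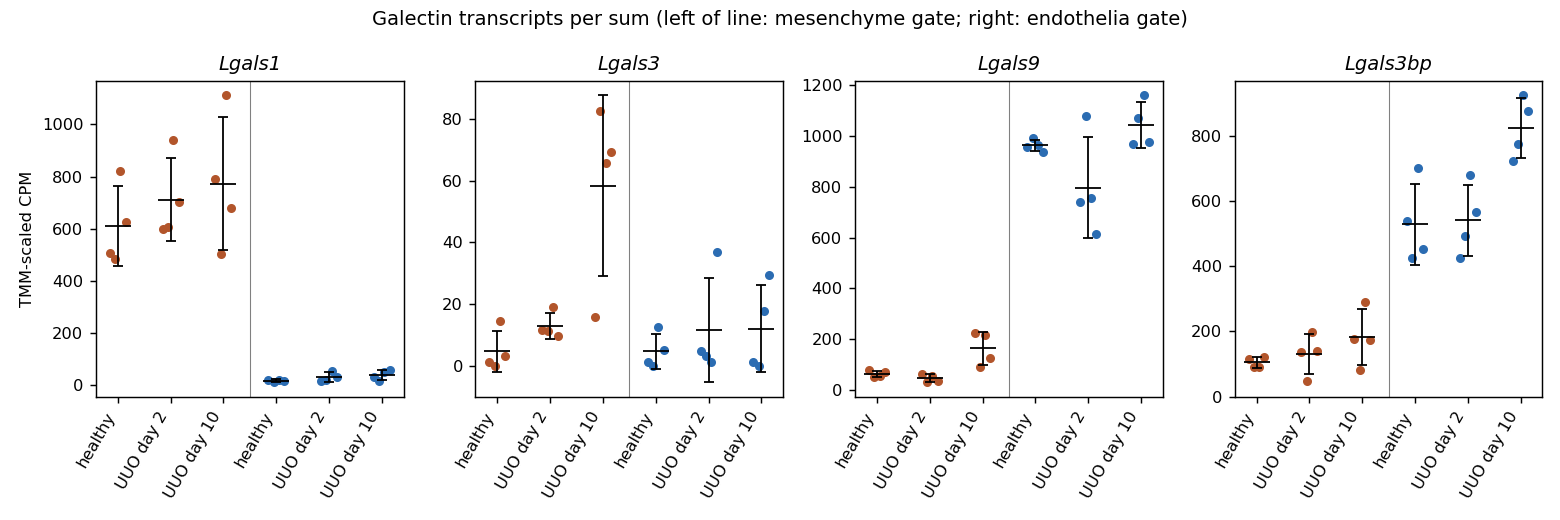
TMM-scaled CPM of each galectin gene (vertical axis) in each sum of cells of a gate and condition. Points are the 4 layout numbers and black marks are means ± SD. Lgals1 is high in mesenchyme sums, Lgals9 and Lgals3bp in endothelia sums, and Lgals3 has its highest mean, 58.4 CPM, in mesenchyme sums at day 10.

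Levels of different genes were compared only per kilobase of exon, using merged exon lengths of 0.903 kb for Lgals1, 1.858 kb for Lgals3, 2.137 kb for Lgals9 and 2.847 kb for Lgals3bp. In healthy mesenchyme Lgals1 averaged 675 ± 171 CPM per kb (SD, n = 4). Lgals3bp averaged 36.9 ± 5.61 and Lgals9 29.1 ± 6.40 CPM per kb there, a difference smaller than the sum of their SDs. Lgals3 was lowest at 2.60 ± 3.58 CPM per kb. In healthy endothelia the order was Lgals9, with 451 ± 10.6 CPM per kb, then Lgals3bp with 186 ± 43.8, Lgals1 with 18.1 ± 5.17 and Lgals3 with 2.58 ± 3.11 CPM per kb (SD, n = 4 each).

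Cells were grouped into 18 clusters without the galectin genes, and clusters were named from marker genes where at least 3 markers fitted. Cluster levels are CPM of reads pooled over both gates and all conditions, without TMM scaling. Lgals1 was present in all mesenchymal clusters, with its highest level, 1999 CPM, in fibroblast-like cells (90 wells, led by Dcn, Hsd11b1 and Col14a1). Pericyte-like cells had 847 CPM of Lgals1, though 5 vascular smooth muscle markers also fitted that cluster. Renin cell-like cells had 704 CPM, the vascular smooth muscle-like clusters 681 and 599 CPM, and mesangial-like cells 345 CPM. Of the 90 fibroblast-like wells, 63 were mesenchyme-gate wells of day 10. In healthy mesenchyme-gate wells alone, Lgals1 had 785 CPM in fibroblast-like (11 wells), 720 CPM in pericyte-like and 684 CPM in vascular smooth muscle-like wells. In the 7 endothelial clusters, over all conditions, Lgals1 ranged from 5.80 to 65.4 CPM. It was not limited to mesenchymal cells, with 311 CPM in parietal epithelial-like cells, 339 and 131 CPM in the tubule-like clusters and 367 CPM in an unnamed cluster of 42 wells, 37 of them from plate 1.

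Lgals9 differed widely over the mesenchymal clusters. It reached 621 CPM in fibroblast-like and 381 CPM in mesangial-like cells, though only 45.2% of mesangial-like wells had a read of it. Pericyte-like cells had 59.2 CPM, renin cell-like cells 16.9 CPM and the vascular smooth muscle-like clusters 14.3 and 4.45 CPM. In healthy mesenchyme-gate wells alone, Lgals9 had 442 CPM in mesangial-like and 392 CPM in fibroblast-like wells. Endothelial clusters held 512 to 1061 CPM of Lgals9, highest in an endothelial-like cluster led by Ssu2, Tspan8 and S100a4 and in another led by Apln, Gpihbp1 and Esm1 (1029 CPM). Lgals3bp also had its highest mesenchymal level, 654 CPM, in fibroblast-like cells. It had 331 CPM in mesangial-like, 134 CPM in renin cell-like and 105 CPM in pericyte-like cells. The pair of vascular smooth muscle-like clusters had 52.9 and 90.3 CPM, and endothelial clusters 480 to 817 CPM. Healthy mesenchyme-gate wells alone had 868 CPM of Lgals3bp where fibroblast-like (11 wells) and 434 CPM where mesangial-like. Pericyte-like wells among them had 83.2 CPM and vascular smooth muscle-like wells 51.8 CPM. Healthy endothelia-gate wells had 554 CPM of it where endothelial-like and 469 CPM where glomerular endothelial-like. Lgals3 stood apart. It reached 1166 CPM in 30 tubule-like cells led by Lcn2, Umod and Wfdc2. A second tubule-like cluster of 20 wells had 160 CPM, and all other clusters were at or below 27.1 CPM. Healthy tubule-like wells had 28.7 CPM of Lgals3 in the mesenchyme gate (8 wells) and 92.0 CPM in the endothelia gate (15 wells).

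**Figure D2:**
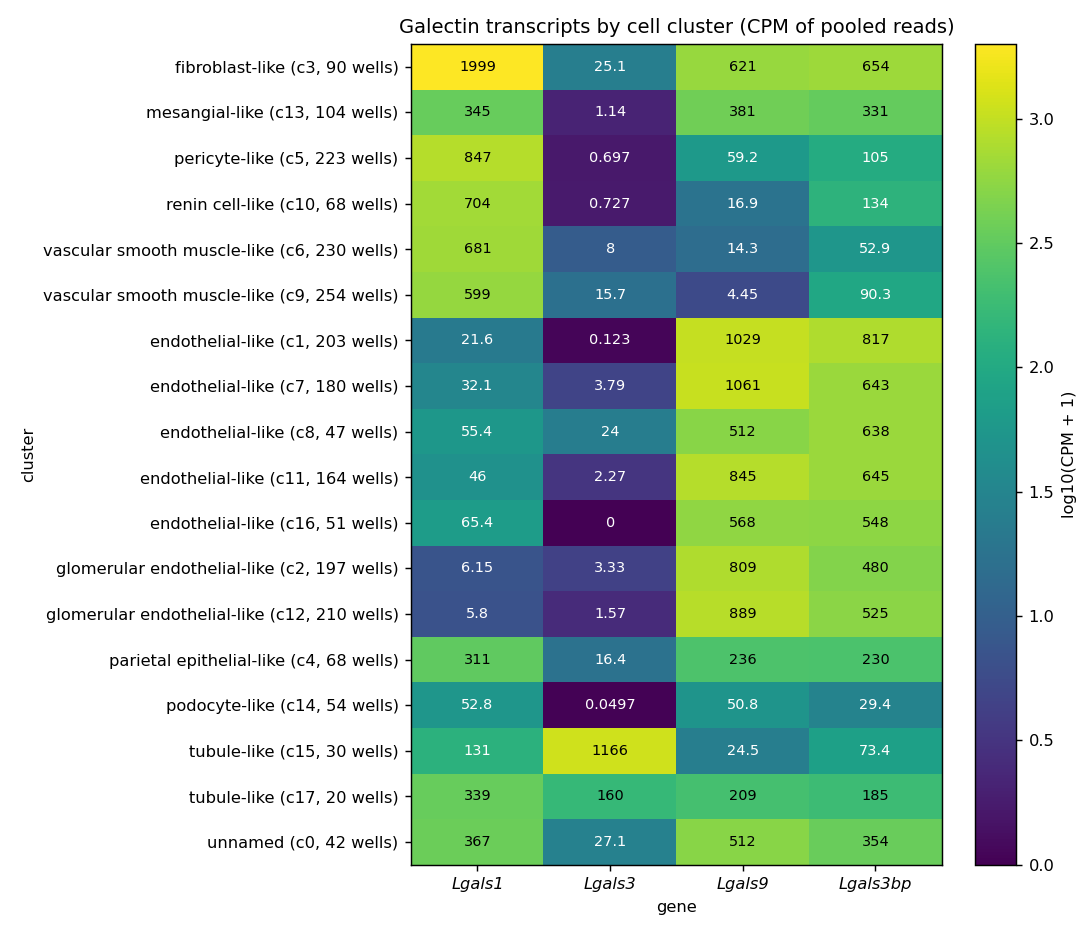
CPM of each galectin gene (columns) in each cell cluster (rows, with the number of wells), coloured on a log10 scale. Reads were pooled over both gates and all conditions. Lgals1 is highest in the fibroblast-like row, at 1999 CPM, and lowest in a glomerular endothelial-like row, at 5.80 CPM. Lgals9 is lowest in a vascular smooth muscle-like row, at 4.45 CPM, and Lgals3 is highest in a tubule-like row, at 1166 CPM.

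In single wells, Lgals1 had a read in 96.7% of 364 healthy mesenchyme wells (exact binomial 95% interval 94.3 to 98.3%) and in 43.9% of 380 healthy endothelia wells (38.9 to 49.1%). With at least 10 reads required, the share was 93.7% in mesenchyme wells, against 9.74% in endothelia wells. Lgals9 had a read in 18.7% of healthy mesenchyme wells (14.8 to 23.1%) and 86.1% of healthy endothelia wells (82.2 to 89.4%). The intervals treat wells as independent and leave out the spread between numbers. Over the 4 numbers the Lgals1 share was 91.8 to 100% in healthy mesenchyme and 38.9 to 65.6% in healthy endothelia. For Lgals9 it was 8.20 to 23.3% in healthy mesenchyme and 79.7 to 90.5% in healthy endothelia. Reads without molecular identifiers are not independent molecules. In the endothelia gate, 802 wells had reads of both Lgals9 and Lgals3bp, which was 83.7% of the 958 wells with Lgals9 and 88.2% of the 909 wells with Lgals3bp. These shares are close to those over all 1129 wells of the gate, 80.5% with Lgals3bp and 84.9% with Lgals9. In the mesenchyme gate 158 wells had both, 62.0% of the 255 with Lgals9 and 36.2% of the 437 with Lgals3bp, where 39.5% of all 1106 wells had Lgals3bp and 23.1% had Lgals9.

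With injury, Lgals9 in the mesenchyme gate was highest at day 10. Its level was 76.1, 48.6, 52.4 and 71.4 CPM in healthy sums, 62.0, 29.6, 54.0 and 34.3 CPM at day 2, and 223, 91.4, 214 and 126 CPM at day 10. All day 10 sums were above all healthy and all day 2 sums, while healthy and day 2 sums overlapped. The log2 change was 1.32 ± 0.22 for day 10 over healthy, 1.84 ± 0.22 for day 10 over day 2 and -0.53 ± 0.22 for day 2 over healthy (SE, n = 4 sums each). This is the pattern by which the genes were chosen. The share of wells with a read was 18.7% in healthy, 17.5% at day 2 and 32.7% at day 10. With wells thinned to 50000 reads it was 12.4%, 10.5% and 25.9%. In these summed cells, more cells of a type and more RNA per cell cannot be told apart.

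Fibroblast-like cells held most of the Lgals9 reads of the gate at day 10. They were 11 of 364 healthy, 14 of 366 day 2 and 63 of 376 day 10 wells of the gate, and held 17.9%, 27.5% and 62.8% of its Lgals9 reads. Within fibroblast-like wells the pooled level was 392 CPM in healthy, 390 CPM at day 2 and 724 CPM at day 10. The healthy value rests on 11 wells. Without fibroblast-like wells, a setting added after the data were seen, the log2 change of Lgals9 was -0.068 ± 0.51 for day 10 over healthy and 0.43 ± 0.53 for day 10 over day 2.

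Lgals1 in the mesenchyme gate had 507, 482, 821 and 627 CPM in healthy sums, 597, 607, 942 and 701 CPM at day 2 and 792, 504, 1112 and 680 CPM at day 10. The 3 groups overlapped, though each number was higher at day 10 than in healthy. The log2 change was 0.33 ± 0.13 for day 10 over healthy, and -0.15 ± 0.15 without fibroblast-like wells. Within fibroblast-like wells the pooled Lgals1 level was 785 CPM in healthy (11 wells), 2524 CPM at day 2 and 2112 CPM at day 10. Lgals3bp had 114, 91.8, 91.4 and 123 CPM in healthy sums, 137, 49.3, 198 and 140 CPM at day 2 and 178, 82.8, 292 and 175 CPM at day 10. These overlapped as well, and the log2 change was 0.62 ± 0.28 for day 10 over healthy. Within fibroblast-like wells the pooled Lgals3bp level went the other way at day 10. It was 868 CPM in healthy, 990 CPM at day 2 and 527 CPM at day 10.

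Lgals3 in the mesenchyme gate had 1.45, 0, 14.6 and 3.24 CPM in healthy sums, 11.8, 11.3, 19.0 and 9.89 CPM at day 2 and 16.1, 82.5, 65.8 and 69.2 CPM at day 10. Day 10 sums lay above all healthy sums but overlapped those of day 2. The log2 change was 4.28 ± 1.11 for day 10 over healthy and 2.10 ± 0.99 for day 10 over day 2 (SE, n = 4 sums each). Reads were found in 12 of 364 healthy, 37 of 366 day 2 and 52 of 376 day 10 wells. A single well held 26.4 to 65.1% of the reads of a number at day 10. In healthy, a single well held all 61 reads of number 1 and another 76.0% of those of number 3. At day 10, 79.98% of the Lgals3 reads of the gate lay in 20 tubule-like wells, 5.32% of its wells. The summed level of 5 injured tubule markers moved the same way, with 0.138 to 4.23 CPM in healthy sums, 3.45 to 22.8 CPM at day 2 and 153 to 760 CPM at day 10. Krt20 was at 0 in healthy sums. Without tubule-like wells, a setting added after the data were seen, the mean Lgals3 level at day 10 was 12.8 CPM in place of 58.4 CPM, and the log2 change was 2.75 ± 1.85 over healthy and 0.14 ± 1.43 over day 2. At day 2, 84.1% of the Lgals3 reads lay in vascular smooth muscle-like wells, 47.0% of the wells of the gate. Over the 4 numbers the Lgals3 level in these cells was 0 to 6.29 CPM in healthy, 14.9 to 31.2 CPM at day 2 and 1.84 to 21.5 CPM at day 10.

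**Figure D3:**
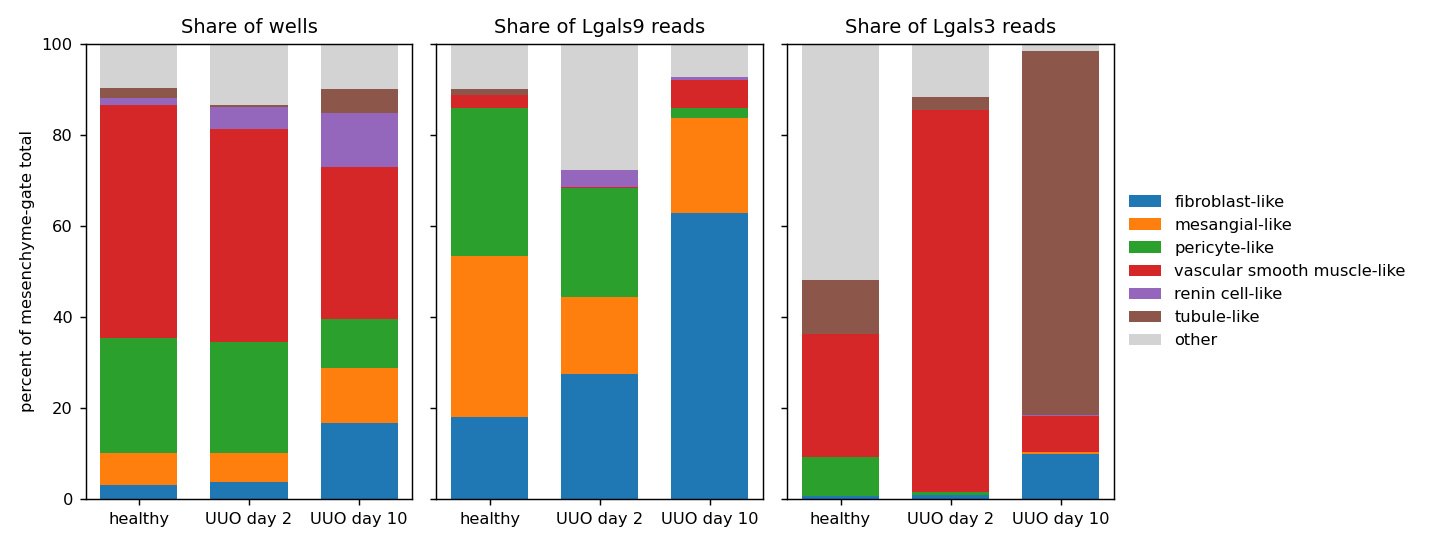
Stacked shares, in percent, of mesenchyme-gate wells (left), Lgals9 reads (middle) and Lgals3 reads (right) by cluster name in healthy, day 2 and day 10 kidneys. At day 10 fibroblast-like wells hold 62.8% of Lgals9 reads and tubule-like wells 79.98% of Lgals3 reads.

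Over all genes, 0.459% of 14582 tested were past the threshold at day 2 over healthy in the mesenchyme gate, 1.32% at day 10 over healthy and 0.048% at day 10 over day 2. Lgals9 was among them in both day 10 comparisons and the other members in none, and since the members were chosen on this contrast nothing is read from that count. The Lgals9 call at day 10 over healthy was lost without number 1, 3 or 4, and that over day 2 without any of the 4 numbers. With a number left out the log2 change ran from 1.11 to 1.4996 over healthy and from 1.80 to 1.91 over day 2.

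The endothelia-gate levels were not those known to have singled the genes out, though the choice was made with earlier results of these data known. Of the 4 members, 0 passed the edgeR threshold in any of the 3 comparisons there. At an unadjusted p under 0.05 there were 0 members at day 2 over healthy, 2 at day 10 over healthy and 2 at day 10 over day 2, and DESeq2 called 0, 1 and 1. Over all 14026 genes, DESeq2 called 3.22%, 5.35% and 2.06% in these comparisons. With edgeR, 0.15% were past the threshold at day 2 over healthy, 0.649% at day 10 over healthy and 0.0143% at day 10 over day 2, so few calls were made at all. At an unadjusted p under 0.05 there were 8.52%, 10.9% and 6.29% of genes.

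Lgals3bp came nearest. It had 539, 424, 701 and 452 CPM in healthy sums, 427, 494, 681 and 565 CPM at day 2 and 722, 774, 925 and 877 CPM at day 10. Every day 10 sum was above every healthy and every day 2 sum. The log2 change was 0.65 ± 0.15 for day 10 over healthy (SE, n = 4 sums each, edgeR adjusted p = 0.093) and 0.62 ± 0.14 for day 10 over day 2 (edgeR adjusted p = 0.29). DESeq2 gave adjusted p = 0.0011 and 0.0044 for these changes, and edgeR on sums per plate, which called 2.33% and 0.372% of all genes, gave 0.015 and 0.047. Over the 16 alternatives the adjusted p ran between 0.0011 and 0.50 for day 10 over healthy. The share of wells with a read was 74.2% in healthy, 76.1% at day 2 and 91.1% at day 10. This share depends on depth, and with wells thinned to 50000 reads it was 66.5%, 70.5% and 83.9%. Endothelial-like wells held 83.2% of the Lgals3bp reads of the gate at day 10. Over the 4 numbers their level was 441 to 781 CPM in healthy, 456 to 643 CPM at day 2 and 722 to 902 CPM at day 10. Healthy and day 10 thus overlapped in these wells. In glomerular endothelial-like wells the level was 374 to 549 CPM in healthy, 349 to 742 CPM at day 2 and 583 to 928 CPM at day 10. Of the glomerular endothelial-like wells, 141 of 170 in healthy lay in the cluster led by P2ry1 and Cyp26b1. At day 2, 139 of 177 lay in that led by Sele and Nos2, as did 42 of 60 at day 10. Of the 203 wells of the Apln-led cluster, 182 were from day 10.

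Lgals9 in the endothelia gate had 957, 994, 964 and 939 CPM in healthy sums, 739, 1081, 757 and 613 CPM at day 2 and 967, 1072, 1161 and 978 CPM at day 10. Day 2 was lower than healthy, and also lower than day 10, in 3 of 4 numbers, and the groups overlapped. For day 10 over day 2 the log2 change was 0.41 ± 0.15 (SE, edgeR adjusted p = 0.61). Lgals9 was 1 of the 2 members at an unadjusted edgeR p under 0.05 in that comparison. The log2 change was -0.30 ± 0.15 for day 2 over healthy (edgeR adjusted p = 0.63) and 0.11 ± 0.14 for day 10 over healthy (edgeR adjusted p = 0.87; SE, n = 4 sums each). Lgals1 there had 20.1, 9.85, 19.3 and 16.2 CPM in healthy sums, 15.3, 18.4, 54.8 and 32.1 CPM at day 2 and 31.6, 14.6, 49.99 and 58.6 CPM at day 10. The groups overlapped, with a log2 change of 1.09 ± 0.40 for day 10 over healthy (edgeR adjusted p = 0.33).

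Lgals3 in the endothelia gate rested on very few wells. It had 1.26, 0, 12.8 and 5.12 CPM in healthy sums, 5.08, 3.27, 1.54 and 37.0 CPM at day 2 and 1.27, 0, 18.0 and 29.5 CPM at day 10. Reads were found in 11 of 380 healthy, 20 of 368 day 2 and 15 of 381 day 10 wells. A single tubule-like well held 48.0% of the reads at day 2, and another held 71.6% at day 10. The log2 change was 2.90 ± 1.75 at day 2 (edgeR adjusted p = 0.75) and 0.91 ± 1.42 at day 10 over healthy (edgeR adjusted p = 0.89).

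**Figure D4:**
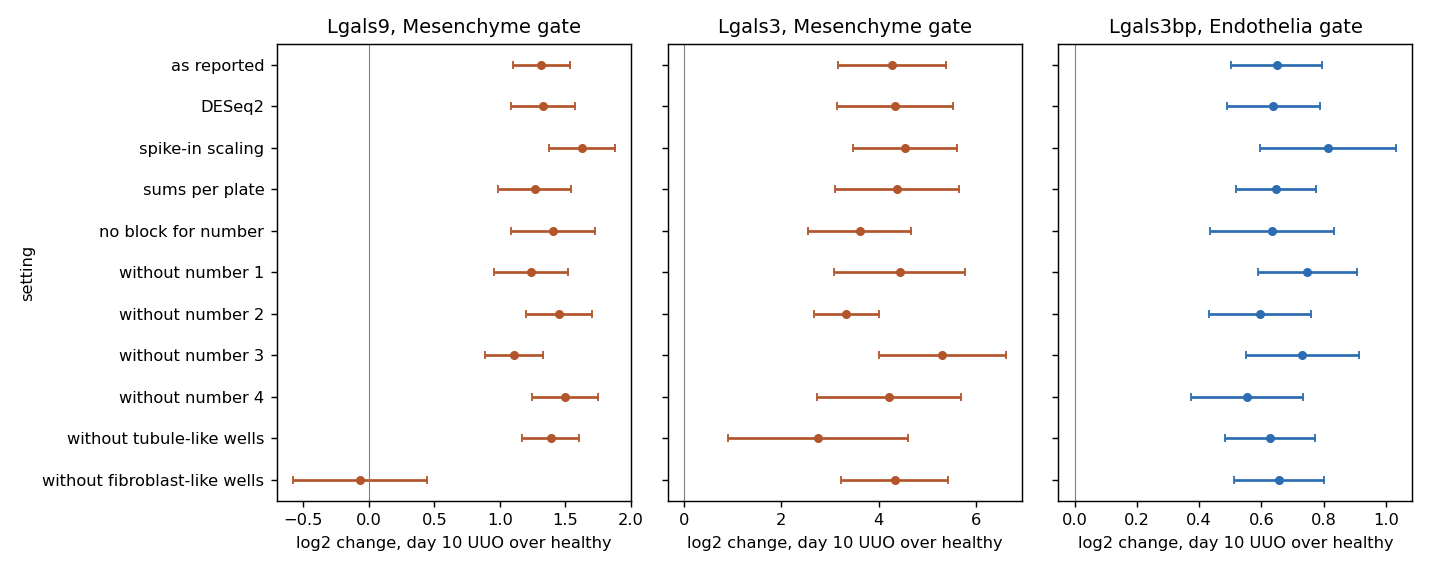
Log2 change at day 10 UUO over healthy (horizontal axis, ± SE) of Lgals9 and Lgals3 in the mesenchyme gate and Lgals3bp in the endothelia gate, under each setting (rows). Lgals9 is near 0 without fibroblast-like wells, at -0.068, and Lgals3 is lower without tubule-like wells, at 2.75.

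Among the other galectin family genes in the tables, Lgals8, a lectin that marks damaged vesicles, averaged 76.4 ± 12.8 CPM in healthy mesenchyme and 142 ± 15.5 CPM in healthy endothelia (SD, n = 4 each). Lgalsl, a galectin-like gene, averaged 346 ± 122 CPM in mesenchyme and 61.2 ± 49.6 CPM in endothelia. Lgals4 averaged 4.63 to 15.5 CPM over the groups, and reads of the similar Lgals6 cannot be told from it with certainty. Lgals2, Lgals6, Lgals7, Lgals12 and Grifin averaged at most 1.70 CPM in any group.

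Enzymes that build and cap the sugars that galectins bind differed between the gates in healthy kidneys. Of 20 glycan branching and capping genes tested, 3 were higher and 10 lower in mesenchyme, beside 11.3% and 12.7% of all genes, and the median log2 difference was -0.81, beside -0.05 over all genes tested. Mgat1, which starts complex N-glycan synthesis, averaged 56.7 ± 38.1 CPM in mesenchyme and 269 ± 97.4 CPM in endothelia (SD, n = 4 each, edgeR adjusted p = 3.29e-05). St3gal1, which caps O-glycans with sialic acid, averaged 21.8 ± 15.5 CPM in mesenchyme and 119 ± 26.3 CPM in endothelia (edgeR adjusted p = 8.90e-05). With injury, 2 of 19 were higher in mesenchyme at day 10 over healthy, beside 97 of all 14582 genes tested. The 2 were B4galt1, which adds the galactose itself, with 171 ± 29.0 CPM at day 10 and 75.8 ± 14.4 CPM in healthy (edgeR adjusted p = 0.020), and Mgat4b, a branching enzyme, with 45.8 ± 6.36 CPM at day 10 and 19.0 ± 3.24 CPM in healthy (edgeR adjusted p = 0.046). The list was chosen with earlier results of these data known, so these mesenchyme p-values are a description. Fibroblast-like wells were 11 of 364 healthy and 63 of 376 day 10 wells, and their part in these changes was not tested. With a number left out, edgeR called 28 to 205 of all genes in this comparison, in place of 193. In endothelia edgeR called 0 of 20 in each comparison. At an unadjusted p under 0.05 there were 4 for day 2 over healthy, 4 for day 10 over healthy and 1 for day 10 over day 2. Over all genes in endothelia, 8.52%, 10.9% and 6.29% were under it.

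Of 29 galectin binding partners tested between the gates, 2 were higher (6.90%) and 12 lower (41.4%) in mesenchyme, beside 11.3% and 12.7% of all genes. The median log2 difference of the list was -0.21, beside -0.05 over all genes. Mcam, an adhesion molecule of pericytes and endothelium, averaged 1113 ± 119 CPM in mesenchyme and 285 ± 49.2 CPM in endothelia (edgeR adjusted p = 6.39e-08). Itga5, the integrin chain that pairs to bind fibronectin, averaged 23.8 ± 5.52 CPM in mesenchyme and 151 ± 22.1 CPM in endothelia (edgeR adjusted p = 2.30e-08). At day 10 over healthy, 3 of 27 were higher in mesenchyme, beside 97 of all 14582 genes tested. Fn1, which makes fibronectin, averaged 467 ± 158 CPM at day 10 and 101 ± 80.4 CPM in healthy (edgeR adjusted p = 0.024). Tgfbr2, a TGF-beta receptor, averaged 190 ± 57.3 CPM at day 10 and 54.0 ± 26.9 CPM in healthy (edgeR adjusted p = 0.020). Lamp2, a lysosomal membrane protein, averaged 456 ± 83.8 CPM at day 10 and 224 ± 50.2 CPM in healthy (edgeR adjusted p = 0.0099). This list too was chosen with earlier results known, so these mesenchyme p-values are a description. The part of the more numerous fibroblast-like wells at day 10 in these changes was not tested. In endothelia 1 of 27 was higher at day 10 over healthy, beside 45 of all 14026 genes tested. This was Col4a1, a basement membrane collagen, with 1151 ± 83.6 CPM at day 10 and 528 ± 106 CPM in healthy (edgeR adjusted p = 0.037).

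Of 30 interferon-responsive genes other than the members, 28 were lower in healthy mesenchyme than in healthy endothelia, the direction of Lgals9 and Lgals3bp, with a median log2 difference of -2.56, where 12.7% of all genes were lower. Bst2, a restriction factor at the cell surface, averaged 45.2 ± 14.8 CPM in mesenchyme and 399 ± 137 CPM in endothelia (edgeR adjusted p = 3.15e-08). With injury few passed. In endothelia 1 of 30 was lower at day 2 and at day 10 over healthy, beside 5 and 46 of all 14026 genes tested. In both it was Rsad2, an antiviral enzyme, with 935 ± 367 CPM in healthy. It had 327 ± 48.0 CPM at day 2 and 422 ± 139 CPM at day 10 (edgeR adjusted p = 0.015 at day 2 and 0.024 at day 10). The median log2 change of the list in endothelia was -0.29 at day 2 and 0.42 at day 10 over healthy, beside -0.02 over all genes in each. For day 10 over day 2 it was 0.63, with 28 of 30 genes positive, 16 at an unadjusted p under 0.05 (6.29% of all genes were) and 0 past the edgeR threshold. In mesenchyme edgeR called 0 of 30 in each comparison, with 2 at an unadjusted p under 0.05 for day 2 over healthy, 9 for day 10 over healthy and 4 for day 10 over day 2. Over all genes in mesenchyme, 10.1%, 13.7% and 8.41% were under it.

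The median log2 change of immune cell markers, 14 of 15 of which are in the tables, had the same sign as that of the interferon-responsive genes in each endothelia comparison. Their summed level was 40.1 to 55.5 CPM in healthy endothelia sums, 6.05 to 51.3 CPM at day 2 and 34.8 to 230.3 CPM at day 10. For day 10 over day 2, 9 of the 11 tested had a positive log2 change, with a median of 3.29 and 0 past the edgeR threshold (1 at an unadjusted p under 0.05). In the mesenchyme gate the summed level was 18.8 to 215 CPM in healthy sums, 28.5 to 48.2 CPM at day 2 and 62.1 to 129 CPM at day 10. Cd3e, a T cell marker, was at 0 in healthy mesenchyme and in day 10 endothelia sums. Wells with at least 10 reads of each of 3 or more of the markers numbered 15 in endothelia (2 healthy, 5 at day 2 and 8 at day 10) and 12 in mesenchyme. Without them the median log2 change of the interferon-responsive list in endothelia at day 10 over day 2 was 0.69, with 28 of 30 genes positive. The log2 change of Lgals3bp there was 0.66 ± 0.15, and that of Lgals9 in mesenchyme at day 10 over healthy was 1.30 ± 0.23 (SE).

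The genes whose levels followed each member most closely over the 12 sums of a gate were ranked by Pearson r of log2(CPM + 1), as a description over sums that share plates and depth. In the mesenchyme gate these were Tspo for Lgals1 (r = 0.96), Bhlhe40 for Lgals3 (r = 0.91), Ppic for Lgals9 (r = 0.92) and Adamts2 for Lgals3bp (r = 0.94), among 8337 genes. In the endothelia gate they were Prnp for Lgals1 (r = 0.89), Zdhhc18 for Lgals3 (r = 0.80), Trim16 for Lgals9 (r = 0.84) and Ifitm3 for Lgals3bp (r = 0.91), among 7863 genes.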

How the data were processed

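For each plate the authors deposited raw read counts per gene and well, raw spike-in counts and a layout of well labels; the deposited counts are whole numbers and not normalized. STAR and mm10 are named in the submitters' processing notes. The counting tool, annotation and strand setting are not given in the sources used here. Entries of 1 symbol were added (24490 entries, 23998 symbols). The 4 members and all lists were chosen with earlier results of these data known.

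Wells with at least 1000 genes and 20000 reads were clustered without galectin genes in scanpy 1.11.5 (2000 variable genes, 30 components, 15 neighbours, Leiden resolution 1, igraph 0.11.9, seed 0). A cluster was named from at least 3 markers detected in 50% of its wells at 2 times the mean over clusters. After the clusters were seen, an endothelial subtype name was kept only where one of its markers was among the 10 leading genes. Doublets were not called. Counts were summed per gate, condition and number, filtered with filterByExpr, scaled with TMM and tested in edgeR 4.0.16 (R 4.3.3) with number as a block. All 12 sums of a gate entered each injury fit, and all 24 sums the gate comparison. The SE is the log2 change over the square root of F. Same-numbered sums deviated together only weakly (r from -0.012 to 0.275), and the number was kept as a block because it follows the plates. From each list, up to 3 genes of smallest p past the threshold could be named, and for each member and gate the 3 genes of highest r, with mean log2 CPM of at least 4. The script was checked on simulated counts. Alternatives were DESeq2 1.42.0, other scalings and filters, no block, each number left out, sums per plate and sets of wells left out. A mesenchyme-gate change counted as moved when it shifted by over 2 times its SE.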

Additional observations from a re-analysis of the deposited data

Results flagged for a closer look

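Of 24 groups of 4 sums checked, 1 held a sum far from the others, and chance alone flags about 1 in 20 groups. Lgals3 in the endothelia gate at day 2 had 37.0 CPM in number 4, against 1.54 to 5.08 CPM in the other numbers. Of the 1635 reads behind that value, 931 came from a single tubule-like well.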

How the results depend on the processing

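Between the gates in healthy kidneys, 3 galectin genes were past the threshold under all 16 alternatives. In the mesenchyme gate at day 10 over healthy the count was 1. It was 2 with DESeq2 and with no filter on low counts, 0 with no replicate block and 0 without fibroblast-like wells, and it ran from 0 (number 1, 3 or 4 left out) to 1 (number 2 left out). At day 10 over day 2 it was 1, with 0 for the fit with no replicate block, 0 without fibroblast-like wells and 0 with any number left out. In the endothelia gate the count was 0, and 1 (Lgals3bp) with DESeq2 and with sums per plate, in both day 10 comparisons. Without fibroblast-like wells the log2 change in mesenchyme at day 10 over healthy was -0.068 ± 0.51 for Lgals9, with no direction beyond its error, and -0.15 ± 0.15 for Lgals1. Without the block for number, Lgals9 in mesenchyme changed by 1.41 ± 0.32 at day 10 over healthy and 1.86 ± 0.32 over day 2, neither past the threshold, and no other galectin call differed. Over all genes, counts of calls moved by more than 1.5 times under many settings: 16 to 568 against 67 for mesenchyme at day 2, 28 to 1144 against 193 at day 10, 0 to 376 against 7 at day 10 over day 2, and in endothelia 0 to 451 against 21, 6 to 751 against 91 and 0 to 289 against 2. DESeq2 gave the highest of each. Spike-in scaling shifted the median of all genes by 0.30 (log2) at day 10 over healthy in mesenchyme, by 0.18 in endothelia and by 0.43 between the gates, with 91.0%, 69.0% and 67.5% of calls higher, against 50.3%, 49.5% and 47.1%. The Lgals1 change in mesenchyme at day 10 was 0.64 under it. The 3 members called between the gates kept their directions under each scaling. The cause of these shifts was not tested. Lgals3 is limited by depth and by few wells.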
